A study of Mus musculus with 5 samples.

Results

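The mouse mitochondrial genome gives 37 transcripts that the deposited tables list under symbols beginning with mt-, and these were taken by that prefix from 55573 genes. They comprise 13 mRNAs, 2 rRNAs and 22 tRNAs. In the annotation (GRCm38, GENCODE release 21), 28 of the genes lie on the + strand of chromosome M and 9 on the − strand, namely mt-Nd6 and 8 tRNA genes. RNA sequencing covered 3 tumour libraries and 2 libraries of normal pancreas. The tumours came from mice in which Cre recombinase under the tyrosine hydroxylase (TH) promoter acts on a MYC transgene behind a loxP-flanked stop (Th-Cre:MYC), and the normal pancreas came from wild-type littermates perfused with RNAlater before the organ was removed. The titles of tumour 1 and tumour 2 share a number that tumour 3 does not have, and no label says whether they come from 1 animal. P-values measure only the spread between these libraries, which may be partly technical. The sources used here do not give age, sex, RNA selection or the strandedness of the libraries.

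Mitochondrial DNA is transcribed from both strands into long precursors. Transfer RNAs that stand between the other genes are cut out of the precursor and so release the flanking mRNAs and rRNAs. The transcript that reads the + strand genes carries both rRNAs and all mRNAs but mt-Nd6, and it covers the rRNA genes first. The mRNAs encode subunits of respiratory complexes I (mt-Nd1 to mt-Nd6 and mt-Nd4l), III (mt-Cytb) and IV (mt-Co1 to mt-Co3) and of ATP synthase (mt-Atp6 and mt-Atp8). Most mammalian mitochondrial mRNAs receive a short poly(A) tail, which completes the stop codon of some of them, whereas ND6 mRNA is known to lack a long tail and the rRNAs carry very short tails at most.

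The sequences below show what could be counted. The first bases of mt-Co3 (chrM:8607-9390, + strand) are given beside those of Gm28437 (chr1:24613189-24613971, − strand), a nuclear pseudogene, because both are the same over the whole aligned length and a short read cannot be assigned to either from its letters. Both are bases 1 to 60 of the transcript, 5′ to 3′.

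mt-Co3: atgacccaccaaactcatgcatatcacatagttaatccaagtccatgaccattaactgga

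Gm28437: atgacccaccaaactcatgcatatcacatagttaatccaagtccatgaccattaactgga

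The last 30 bases of 4 mRNAs show the 3′ ends at which tails are or are not needed. In mt-Co3, mt-Cytb (chrM:14145-15288) and mt-Nd4 (chrM:10167-11544) the annotated transcript stops at 1 base past its last whole codon, shown as a capital T, so that a tail has to supply the rest of the stop codon. In mt-Nd6 (chrM:13552-14070, − strand) the stop codon is complete and is shown in capitals. The other 9 mRNAs also ended with a complete stop codon.

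mt-Co3 end: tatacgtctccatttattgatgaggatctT

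mt-Cytb end: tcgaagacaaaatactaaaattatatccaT

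mt-Nd4 end: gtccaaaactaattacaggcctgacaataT

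mt-Nd6 end: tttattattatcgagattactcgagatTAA

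The tRNA mt-Tm (tRNA for methionine, chrM:3845-3913, + strand) is printed whole because its length decides whether these libraries could count it.

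mt-Tm: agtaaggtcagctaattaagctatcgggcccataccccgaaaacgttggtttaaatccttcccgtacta

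The libraries held 48848987 and 51669489 counts for normal pancreas and 6611967 to 15074489 for the tumours. Acinar marker genes took 86.7% and 87.3% of the counts in normal pancreas and 0.0101% to 0.516% in the tumours, whereas RNAs annotated as misc_RNA took 0.00116% and 0.000319% against 22.0% to 25.3%. The label of the tumour was checked against markers: 6 neuroendocrine genes made up 0.624% to 1.17% of tumour counts and 5 islet hormone genes 1.93% to 4.94%, while 6 sympathoadrenal genes summed to at most 0.00304%, with 2 of them at 0 in all tumours. A share of all counts therefore moves with these other RNAs. Counts were compared after TMM scaling, a factor per library that assumes most genes to be unchanged (0.271 and 0.263 in normal pancreas, 2.19 to 2.57 in tumours). With TMM, 39.2% of 16810 genes tested were called higher in tumour and 27.8% lower by edgeR's quasi-likelihood test at an adjusted p under 0.05. The median log2 fold change was 0.38. More genes were thus called than not, so these calls do not bear out that assumption. Fewer cells of a type and less RNA per cell cannot be told apart in these bulk samples.

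Both mitochondrial rRNAs lay higher in all 3 tumours than in both normal libraries. The plot of TPM by library shows the rRNAs near the bottom of the mitochondrial range in normal pancreas and mt-Rnr2 at its top in the tumours.

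**Figure D1:**
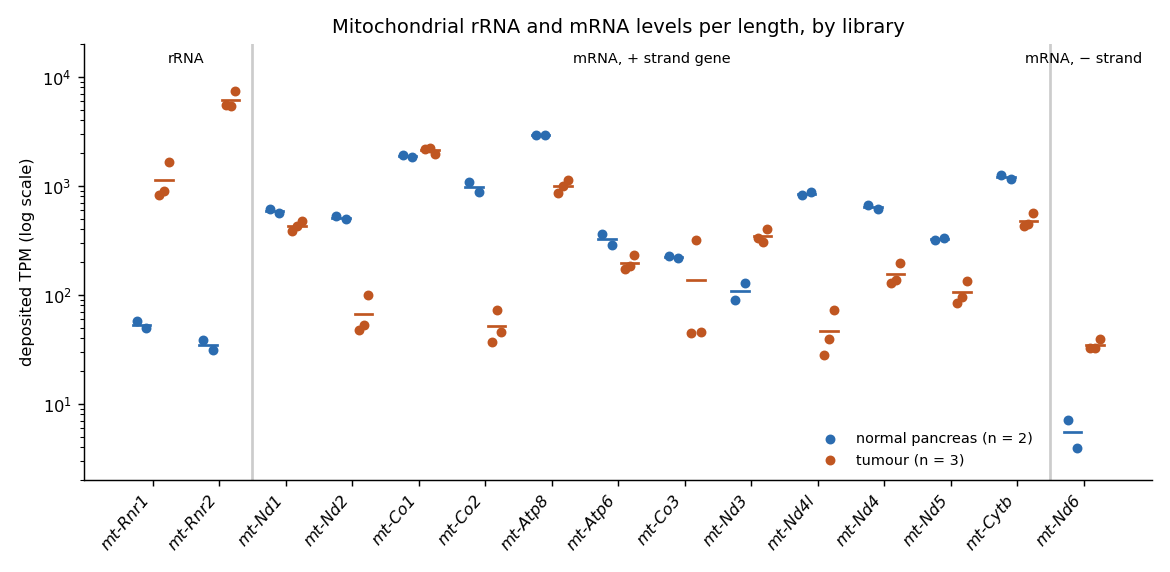
Deposited TPM (abundance per length, log scale) of the 2 rRNAs and 13 mRNAs in each library, with + strand mRNA genes in genome order and the − strand gene mt-Nd6 last. Points are libraries and bars are group means; mt-Rnr2 goes from 31.0 and 38.7 in normal pancreas to between 5434 and 7340 in tumours.

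The large-subunit rRNA mt-Rnr2 (chrM:1094-2675) had 179 and 149 CPM (counts scaled to the TMM library size) in normal pancreas against 8550, 9030 and 14666 for tumours 1 to 3. Its log2 fold change was 6.03 (SE 0.91, edgeR adjusted p = 0.0015). The small-subunit rRNA mt-Rnr1 (chrM:70-1024) had 149 and 132 CPM in normal pancreas against 706, 822 and 1836 for tumours 1 to 3. Its log2 fold change was 2.997 (SE 0.51, edgeR adjusted p = 0.00263). Tumour 3, the shallowest library, was the highest tumour library for both, and in neither gene did the groups overlap. Before scaling, mt-Rnr1 had 26562, 26533 and 26511 counts in tumours 1 to 3. Its differences in CPM among the tumours therefore come from the library sizes, and why its counts did not follow depth was not tested.

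The 2 rRNAs, which come from 1 precursor and are needed in equal number in ribosomes, did not stand in the same ratio in the groups. In counts, mt-Rnr2 per mt-Rnr1 was 1.20 and 1.13 in normal pancreas and 12.1, 10.99 and 7.99 in tumours. Among the tumours the mt-Rnr1 count was nearly constant, so the differences between their ratios follow the mt-Rnr2 counts. Per length, on the TPM scale, the ratio was 0.671 and 0.631 against 6.66, 6.05 and 4.41. The ratio was thus below 1 per length in both normal libraries and above 4 in all tumours. The exact permutation test over libraries (two-sided) gave p = 0.1 for the count ratio, which is the smallest p that 10 splits of 3 against 2 libraries allow.

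Against the mitochondrial mRNAs, the rRNAs were far more abundant in the tumours. There were 0.0137 and 0.0120 rRNA counts per mRNA count in normal pancreas and 1.96, 1.82 and 2.61 in tumours, a ratio of group means of 165. As a share of all counts, rRNA was 0.00813% ± 0.00107 (SD, n = 2) in normal pancreas against 2.81% ± 0.694 (SD, n = 3) in tumours. Of the 5 shares and ratios tested in this family, each gave the exact permutation p = 0.1, and p = 0.1 after Benjamini-Hochberg adjustment, with no overlap between groups.

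**Figure D2:**
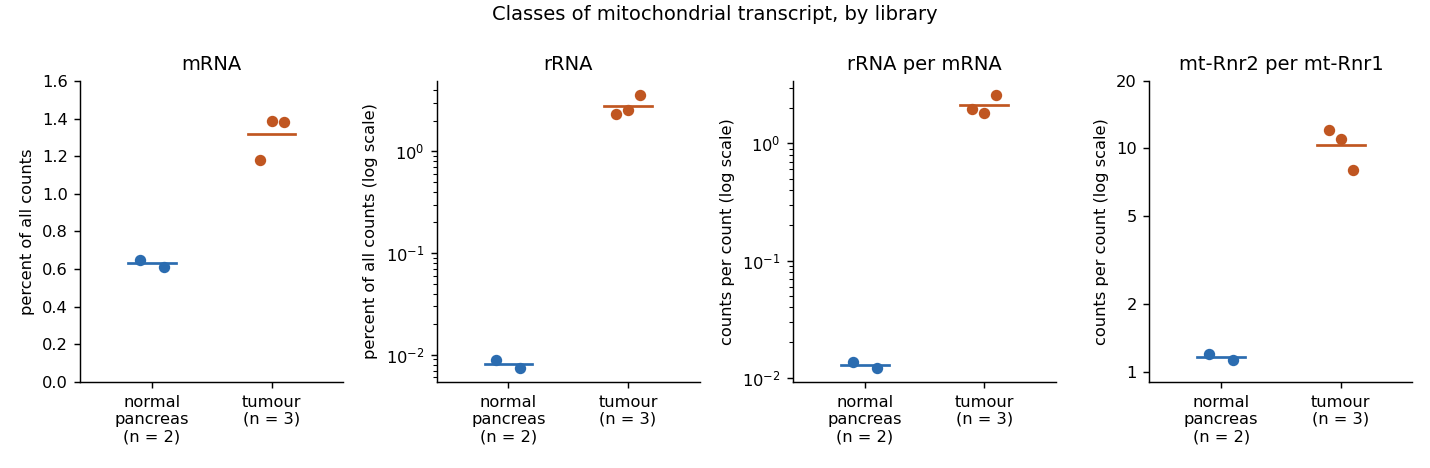
Share of all counts taken by mitochondrial mRNA (linear axis) and rRNA, rRNA counts per mRNA count and mt-Rnr2 counts per mt-Rnr1 count (log axes), 1 point per library with group means as bars. The groups do not overlap in any panel, and the rRNA share of the tumours lies between 2.31% and 3.604%.

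RNA selection is not given for either tissue, so a difference in it could not be told apart from the tissue and was not tested. RNAs that are known to lack a poly(A) tail moved in the same direction as the rRNAs. All 8 listed rows of this kind outside the histones were called higher by edgeR, beside 39.2% of all genes; Rmrp stands in 2 rows, and Rn7s1 and Rn7s2 had equal counts in normal pancreas, so the rows are not separate measurements. The median log2 fold change was 12.1, or 11.8 with the 3 rows that were at 0 in both normal libraries set to a floor of 3 counts over that group. Rpph1, the RNA of ribonuclease P, had 8 and 0 counts in normal pancreas and 86488 to 213956 in tumours. Among 61 clustered histone genes tested, 53 were called higher and 5 lower, beside 39.2% and 27.8% of all genes, with a median of 7.69, or 4.97 with the 33 genes at 0 in normal pancreas set to the same floor. Replication-dependent histone mRNAs end in a stem-loop in place of a tail and are made in dividing cells.

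The one mRNA encoded on the − strand, mt-Nd6, was the only mRNA called higher in tumour with TMM scaling. It encodes a membrane subunit of complex I. It had 8.17 and 4.79 CPM in normal pancreas against 12.01, 12.8 and 19.2 in tumours, so that every tumour library lay above both normal ones. The log2 fold change was 1.17 (SE 0.31, edgeR adjusted p = 0.0158), and without normal pancreas 2 it was 0.85 (adjusted p = 0.105). The normal values rest on 108 and 65 counts.

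As a share of the mitochondrial mRNA counts, mt-Nd6 took 0.0342% and 0.0205% in normal pancreas and 0.254%, 0.236% and 0.303% in tumours. The ratio of group means was 9.66 (exact permutation p = 0.1, two-sided, the smallest possible). On the TPM scale, it remained the least abundant of the 15 rRNAs and mRNAs in both tissues, at 5.49 ± 2.18 (SD, n = 2) in normal pancreas against 34.8 ± 4.27 (SD, n = 3) in tumours. The annotated gene overlaps mt-Nd5 by 14 bases on the opposite strand. Since strandedness is not given, reads from mt-Nd6 cannot be told apart from reads of the + strand precursor that runs antisense to it.

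The mitochondrial mRNAs as a class took 0.647% and 0.613% of all counts in normal pancreas and 1.18%, 1.39% and 1.38% in tumours. Outside acinar markers, misc_RNA and mitochondrial rRNA, their share was 4.85% and 4.82% against 1.56%, 1.87% and 1.96%. The groups did not overlap in either measure, and the direction depended on which RNAs were in the denominator.

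Of the 12 mRNAs encoded on the + strand, 9 were called lower in tumour and 3 were not called. Over all 15 members tested, 3 were called higher and 9 lower, beside 39.2% and 27.8% of all genes. The median log2 fold change of the 13 mRNAs was -2.76. The direction turns with the scaling: on total counts alone, 7 members were called higher and 3 lower, beside 93.3% of all genes higher and 2.37% lower, and the mRNA median was 0.40 with an all-gene median of 3.55. Measured from the all-gene median, the mRNA median was -3.14 with TMM and -3.16 with total counts. Both scalings are a factor per library that shifts all genes nearly alike, so these values are close by construction. On log2(TPM + 1), limma gave an mRNA median of -1.35, beside 0.62 for all genes.

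Complex I mRNAs differed widely among themselves. The strongest fall was that of mt-Nd4l, which had 365 and 411 CPM in normal pancreas against 3.59, 5.36 and 12.5 in tumours. Its log2 fold change was -5.79 (SE 0.54, edgeR adjusted p = 0.000212), and without tumour 3 it was -6.41. mt-Nd2 had 1511 and 1463 CPM in normal pancreas against 45.2, 54.1 and 121 in tumours. Its log2 fold change was -4.34 (SE 0.48, edgeR adjusted p = 0.000419). In both genes tumour 3 was the highest tumour library and still lay far below normal pancreas.

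mt-Nd4 had 2659 and 2540 CPM in normal pancreas against 170, 194 and 338 in tumours, with a log2 fold change of -3.47 (SE 0.39). mt-Nd5 had 1736 and 1851 CPM against 155, 188 and 317, with a log2 fold change of -3.03 (SE 0.37). mt-Nd1, the mRNA next to the rRNA genes, had 1582 and 1529 CPM against 329, 390 and 522, with a log2 fold change of -1.91 (SE 0.30). The edgeR adjusted p was at most 0.0017 for these 3 genes, and no groups overlapped. mt-Nd3 had 54.3 and 82.3 CPM in normal pancreas against 60.3, 58.7 and 97.2 in tumours, so the groups overlapped and it was not called. On log2(TPM + 1), limma called mt-Nd3 higher (1.67, adjusted p = 0.00247) and did not call mt-Nd1 (-0.47, adjusted p = 0.176).

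mt-Cytb, the complex III subunit, had 4010 and 3828 CPM in normal pancreas against 457, 507 and 773 in tumours. Its log2 fold change was -2.76 (SE 0.42, edgeR adjusted p = 0.00154). For ATP synthase, mt-Atp8 had 505 and 559 CPM against 35.6, 44.4 and 66.2, and mt-Atp6 had 614 and 501 against 96.1, 108 and 166. The log2 fold changes were -3.45 (SE 0.29) and -2.17 (SE 0.28), both called by edgeR.

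The complex IV mRNAs also differed among themselves. mt-Co1, the catalytic subunit and the most counted mRNA in every library, had 8572 and 8544 CPM in normal pancreas against 3317, 3576 and 3829 in tumours. The groups did not overlap, but its log2 fold change of -1.26 (SE 0.59) missed the threshold (edgeR adjusted p = 0.098), which it passed without tumour 3 (-1.28, adjusted p = 0.0173). DESeq2 called it lower at -1.21 (adjusted p = 7.37e-17). mt-Co2 had 1829 and 1542 CPM against 20.3, 43.0 and 32.4, with a log2 fold change of -5.72 (SE 0.40, edgeR adjusted p = 7.79e-05). mt-Co3 had 463 and 455 CPM in normal pancreas against 29.8, 226 and 39.1 in tumours, where tumour 2 stood apart. Its log2 fold change was -2.22 (SE 0.84, edgeR adjusted p = 0.0526), and without tumour 2 it was -3.73 (adjusted p = 5.79e-05).

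The values of mt-Co2, mt-Co3, mt-Nd3, mt-Atp6 and mt-Nd4l depend on how reads were divided between the mitochondrial gene and its nuclear copy. A block of chromosome 1 (chr1:24611535-24616197, − strand) holds 7 annotated pseudogenes whose sequences match mitochondrial mRNAs. In 6 of them no aligned base differed: Gm28661 and mt-Co2 over 681 bases, Gm28437 and mt-Co3 over 783, Gm10925 and mt-Atp6 over 678, Gm28438 and mt-Nd3 over 342, Gm10222 and mt-Nd4l over 294, and Gm28439 and mt-Nd4 over 876. Gm29216 matched mt-Co1 (chrM:5328-6872) over 483 bases with 1 substitution, A1066T. In this name the mitochondrial base stands first and positions count from the first base of mt-Co1. The copy is 492 bases long, and the bases left unaligned are its first ones. The substitution lies close to them, at the edge of the alignment.

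RSEM divides such reads by estimation, and the division differed between tissues and between libraries. For mt-Co2, the nuclear copy received 52.5% and 56.2% of the summed count of the pair in normal pancreas and 98.1%, 95.9% and 97.4% in tumours. For mt-Co3, it received 87.2% and 86.3% against 98.4%, 89.6% and 98.1%. For mt-Nd4l, it received 0% and 0.00197% against 58.6%, 54.0% and 45.3%. The copy thus took a larger part in the tumours for these 3 pairs.

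For mt-Nd3, the copy received 88.8% and 81.0% in normal pancreas and 58.1%, 63.2% and 50.2% in tumours. For mt-Atp6, it received 81.2% and 83.8% against 73.0%, 74.3% and 70.8%. The part of the copy was smaller in the tumours for these 2 pairs. For mt-Co1 it was 1.57% to 7.04% in any library, and for mt-Nd4 it was 0 in all libraries although the copy is identical over its length.

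**Figure D3:**
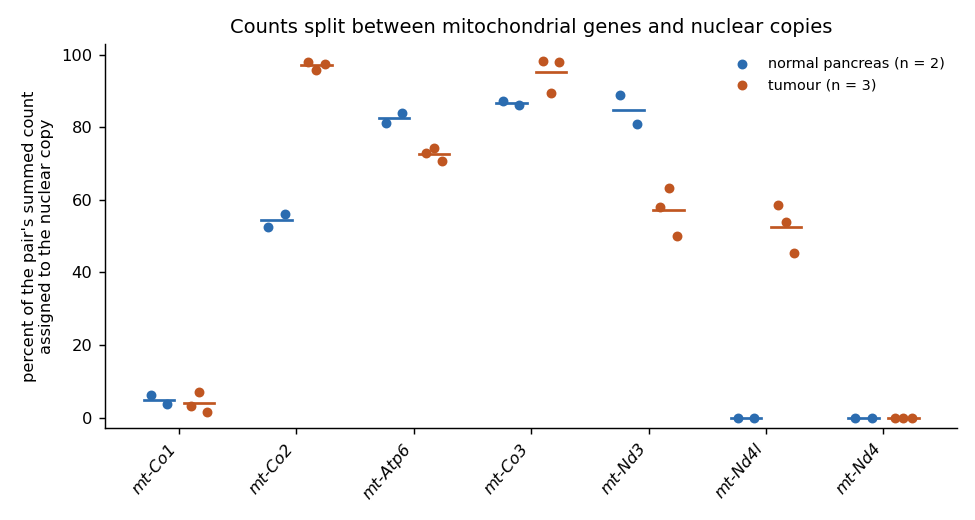
Percent of the summed count of each pair (mitochondrial gene plus nuclear copy) that the deposited tables assign to the nuclear copy, 1 point per library with group means as bars. For mt-Co2 the tumours lie between 95.9% and 98.1% and normal pancreas at 52.5% and 56.2%.

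When each copy was added to its mitochondrial gene, the falls of mt-Co2, mt-Co3 and mt-Nd4l shrank, and the values of mt-Nd3 and mt-Atp6 became lower. In this fit, chosen after seeing the data, the log2 fold change of mt-Co2 was -1.71 (SE 0.38, edgeR adjusted p = 0.00742). That of mt-Co3 was -0.78 (SE 0.42, edgeR adjusted p = 0.14), and tumour 2 no longer stood apart, with 2178 CPM beside 1857 and 2059. mt-Nd4l still fell, by 4.77 on the log2 scale. mt-Nd3 went from a value near 0 to -1.47 (SE 0.20, edgeR adjusted p = 0.000989), with 487 and 433 CPM in normal pancreas against 144, 160 and 195 in tumours. mt-Atp6 went to -2.83. The counts of calls were 3 higher and 10 lower, and the mRNA median stayed at -2.76.

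The 13 mRNAs were next compared within the mitochondrial genome, by their share of the mitochondrial mRNA counts, which does not depend on acinar or other nuclear transcripts. With the nuclear copies added, mt-Co1 took 27.9% and 28.2% of these counts in normal pancreas and 42.5%, 42.4% and 38.4% in tumours. mt-Co3 took 11.1% and 10.6% against 23.0%, 24.0% and 20.3%. Together with mt-Co2, at 11.8% and 11.2% against 13.2%, 11.7% and 12.3%, the complex IV mRNAs held the largest part in all libraries. The shares of mt-Co1 and mt-Co3 were higher in every tumour than in either normal library.

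Among the mRNAs with smaller shares in tumours, mt-Nd2 took 4.62% and 4.65% in normal pancreas and 0.561%, 0.597% and 1.20% in tumours. mt-Cytb took 12.2% in both normal libraries and 5.67%, 5.59% and 7.63% in tumours. mt-Nd4 took 8.12% and 8.08% against 2.11%, 2.14% and 3.33%. mt-Nd1 was close to level, at 4.83% and 4.86% against 4.08%, 4.30% and 5.15%, and its groups overlapped.

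**Figure D4:**
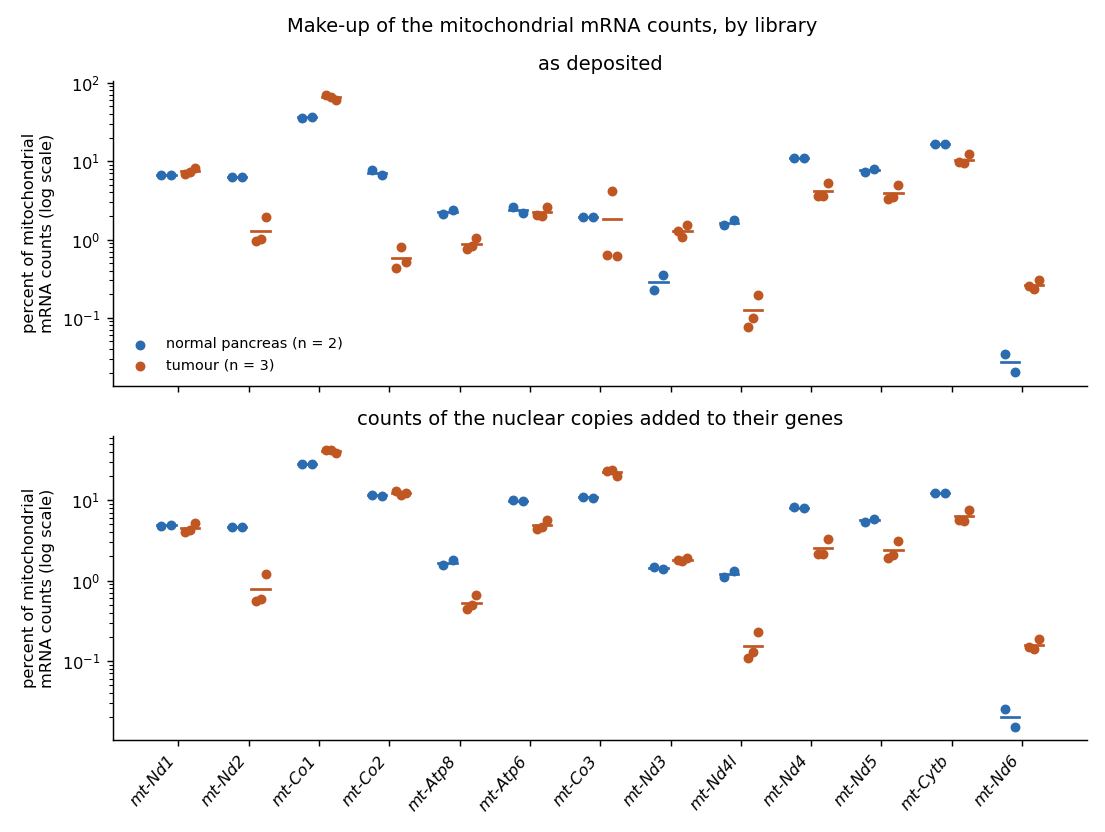
Percent of the mitochondrial mRNA counts taken by each mRNA (log scale), as deposited and with the counts of nuclear copies added, 1 point per library with group means as bars. With copies added, mt-Co2 overlaps between tissues and mt-Co3 is at 20.3% to 24.0% in tumours and 10.6% and 11.1% in normal pancreas.

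A fit with the mitochondrial mRNA total as the library size tested these differences. On the deposited counts, 4 of 15 members were called higher (the 2 rRNAs, mt-Nd6 and mt-Nd3) and 6 lower, beside 83.4% of all genes higher and 4.41% lower. mt-Nd5, 1 of the 6, lost its call without either normal library (adjusted p = 0.0701 and 0.106), and mt-Co3 was called lower without tumour 2 (-1.64). With copies added, 3 were called higher and 7 lower, beside 79.1% and 5.73% of all genes, and mt-Nd3 was no longer called (0.35, SE 0.20, edgeR adjusted p = 0.139). The 3 higher members were mt-Rnr2 (7.84, SE 1.13), mt-Rnr1 (4.78, SE 0.55) and mt-Nd6 (2.98, SE 0.29). Because a share falls when another rises, each of these values is relative to the other mRNAs.

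With copies added, the 7 lower members in this fit were mt-Nd4l (-2.98, SE 0.32), mt-Nd2 (-2.56, SE 0.37), mt-Nd4 (-1.68, SE 0.32), mt-Atp8 (-1.65, SE 0.22), mt-Nd5 (-1.24, SE 0.30), mt-Atp6 (-1.02, SE 0.32) and mt-Cytb (-0.96, SE 0.36). All values are log2 fold changes called by edgeR. mt-Co3 (1.05, SE 0.49, adjusted p = 0.079), mt-Co1 (0.55, SE 0.62, adjusted p = 0.424), mt-Co2 (0.11, SE 0.40) and mt-Nd1 (-0.10, SE 0.27) were not called. With mt-Co1 left out of the library size, mt-Co3 reached 1.35 (edgeR adjusted p = 0.0478). No complex IV mRNA was among the 7 lower members of the fit with copies added, which was chosen after seeing the data. On the deposited counts, mt-Co2 was called lower (-3.62, edgeR adjusted p = 2.62e-05).

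The order of the genes along the genome did not order these values. Across the 12 + strand mRNAs, the relative log2 fold change had a Spearman rho of -0.20 with the start position, 0.11 with length and 0.23 with GC content. These are descriptions across genes that share precursors and libraries. Neighbours could differ: mt-Nd2 at -2.56 lies between mt-Nd1 at -0.10 and mt-Co1 at 0.55.

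**Figure D5:**
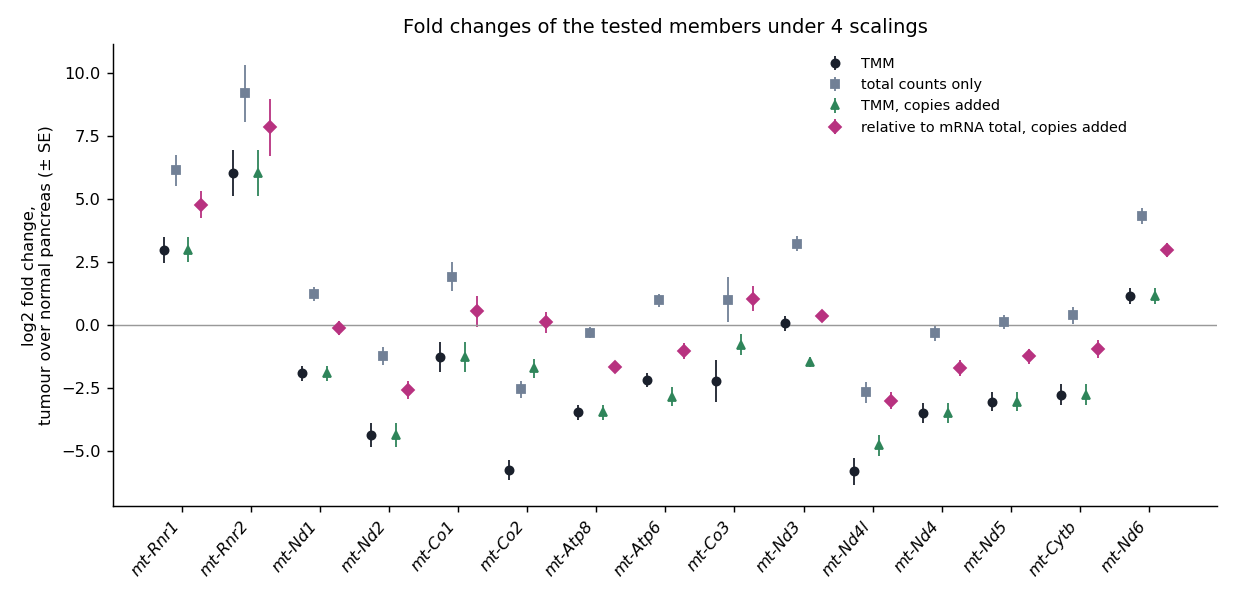
Log2 fold change of tumour over normal pancreas with its SE for the 15 members tested, under TMM scaling, total counts alone, TMM with nuclear copies added, and relative to the mitochondrial mRNA total with copies added. The rRNAs and mt-Nd6 are above 0 in all 4, and mt-Nd2, mt-Nd4l, mt-Nd4 and mt-Atp8 are below 0 in all 4.

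Fragment length differed between the tissues and bears on the short transcripts. The length of an mRNA less its effective length, an estimate of the mean fragment, was 164 and 159 bases in normal pancreas and 188, 188 and 181 in tumours. For mt-Atp8, which is 204 bases long, the effective length was 52.3 and 56.4 bases in normal pancreas and 36.8, 37.8 and 41.4 in tumours. For mt-Nd4l, which is 297 bases long, it was 136 and 140 against 114, 114 and 121. TPM takes this into account: mt-Atp8 was at 2949 ± 6.84 (SD, n = 2) and 991 ± 129 (SD, n = 3), and mt-Nd4l at 846 ± 33.6 and 46.7 ± 23.3.

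Both short genes share a bicistronic mRNA with a longer neighbour, mt-Atp8 with mt-Atp6 (43 bases of overlap) and mt-Nd4l with mt-Nd4 (7 bases). With copies added and after division by the effective length, mt-Nd4l made up 5.15% and 5.84% of the mRNAs in normal pancreas and 0.652%, 0.774% and 1.27% in tumours. mt-Nd4 made up 4.19% and 4.15% against 1.23%, 1.24% and 1.88%. Per length, mt-Nd4l was thus above mt-Nd4 in normal pancreas and below it in tumours. For mt-Atp8 the values were 18.5% and 19.8% against 8.29%, 8.94% and 10.7%, and for mt-Atp6 12.1% and 11.8% against 6.19%, 6.49% and 7.61%, so the order of this pair was the same in both tissues.

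By level per length, the order of the 15 transcripts also differed. In normal pancreas, mt-Atp8 was first in TPM, followed by mt-Co1 at 1865 ± 49.6 and mt-Cytb at 1203 ± 69.9 (SD, n = 2). mt-Co2, at 974 ± 144, and mt-Nd4l did not differ beyond their spread. In tumours, mt-Rnr2 was first at 6084 ± 1088, followed by mt-Co1 at 2121 ± 133 and mt-Rnr1 at 1128 ± 465 (SD, n = 3). mt-Rnr1 and mt-Atp8 did not differ beyond their spread there. This order leaves out the reads given to nuclear copies. With copies added and divided by the effective length, mt-Co2 (14.2% and 13.4% of the mRNAs) lay above mt-Co1 (12.7% and 12.8%) in normal pancreas, and mt-Atp6 and mt-Co3 lay above mt-Cytb. In tumours, mt-Co3 (26.7%, 27.8% and 22.8%) then lay above mt-Co1 (21.7%, 21.5% and 19.0%) in each library.

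The tRNAs could not be measured in these libraries. All 22 are 59 to 75 bases long, shorter than the mean fragment, and the deposited effective length was 0 for each of them in each library. They received 2 counts in all: mt-Tm 1 in normal pancreas 1, and mt-Ty, the tRNA for tyrosine on the − strand, 1 in tumour 1. The 14 + strand and 8 − strand tRNAs therefore gave no comparison. A count of 0 allows up to 3 counts, 5.81e-06% to 4.54e-05% of a library, a limit for counting error among fragments that could be assigned and not for tRNA in the tissue.

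Nuclear genes that transcribe, process, stabilise, modify and replicate mitochondrial nucleic acids were counted from a list of 52, all tested. edgeR called 9 higher and 18 lower with TMM, beside 39.2% and 27.8% of all genes, and 25 were not called. The median log2 fold change was -0.22, beside 0.38 for all genes. With total counts alone, 49 were called higher and none had a fold change below 0 (median 2.97), which is near the 93.3% of all genes called higher with that scaling. With TMM and without normal pancreas 1, the machinery median was -0.089, beside 0.47 for all genes. Without normal pancreas 2 it was -0.18, beside 0.47 for all genes. Neither Polrmt, the mitochondrial RNA polymerase (-0.25, SE 0.16), nor Tfam, its activator that also packs mitochondrial DNA (-0.28, SE 0.20), was called with TMM.

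The counts by role are to be read against the same 39.2% of all genes called higher and 27.8% called lower. Among the 9 transcription genes, 3 were called higher and 1 lower, so the share called higher was near that of all genes. Mterf2 of the mitochondrial termination factor family had 0.983 and 1.18 CPM in normal pancreas against 2.66, 3.41 and 2.91 in tumours (log2 fold change 1.46, SE 0.34). Mterf1b had 0.0756 and 0.147 CPM in normal pancreas against 0.762 to 1.73 in tumours (3.57, SE 0.70). Mterf1a and Mterf1b are near-identical copies, so counts may be divided between them. Of the 12 processing genes, edgeR called 6 lower and none higher, beside 27.8% and 39.2% of all genes, with 1 higher at an unadjusted p under 0.05. DESeq2 called 4 lower and none higher, beside 4653 and 6525 of 26671 genes. Upper-quartile scaling gave 4 lower and 1 higher, beside 4234 and 7042 of 16810 genes. The fit without tumour 3 gave 3 lower and 1 higher, beside 4384 and 6533 of 17579 genes. Hsd17b10, a subunit of mitochondrial ribonuclease P, had 46.5 and 40.7 CPM against 6.01, 6.88 and 6.65 (-2.74, SE 0.14). Elac2, which cuts the 3′ ends of tRNAs, was lower by less (-0.68, SE 0.18), as was Ptcd2 (-1.26, SE 0.20), a pentatricopeptide protein.

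Of the 8 genes for RNA stability, 3 were called higher and 3 lower, beside 39.2% and 27.8% of all genes. Lrpprc, which holds mitochondrial mRNAs and promotes their polyadenylation, had 12.6 and 12.3 CPM in normal pancreas against 26.5, 35.1 and 32.2 in tumours (1.33, SE 0.17, edgeR adjusted p = 0.000783). Rexo2, an oligoribonuclease, had 68.8 and 66.7 CPM against 7.9998, 15.6 and 9.97 (-2.60, SE 0.28). Of the 14 modification genes, 1 was called higher and 6 lower, beside the same shares. Tfb1m, which methylates the small-subunit rRNA, had 10.3 and 9.57 CPM against 1.59, 1.58 and 1.87 (-2.57, SE 0.21). Mto1, a tRNA-modifying enzyme, was also lower (-1.21, SE 0.19). mt-Rnr1, the rRNA on which Tfb1m acts, was higher in the same tumours.

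Of the 9 replication genes, 2 were called higher and 2 lower, in neither direction above the 39.2% and 27.8% of all genes. The lower ones were Mgme1, a nuclease of mitochondrial DNA (-1.70, SE 0.22), and Tk2, a mitochondrial thymidine kinase (-1.43, SE 0.14). Nuclear genes for subunits of the respiratory complexes gave 1 higher and 66 lower of 77 tested, beside 39.2% and 27.8% of all genes, with a median of -1.24, beside -2.76 for the mitochondrially encoded mRNAs. With total counts alone, all 77 were called higher (median 1.94), beside 93.3% of all genes (median 3.55). Measured from the all-gene median, the nuclear subunits stood at -1.61 with TMM and -1.62 with total counts, which are close by construction. On log2(TPM + 1), limma called 27 of the 77 higher and 8 lower, with a median of 0.18. Beside this, limma called 10665 of 16810 genes higher and 1173 lower, with a median of 0.62.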

How the data were processed

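Total RNA was extracted on columns, per the labels' protocols. The submitters' processing notes name Trim Galore 0.60, STAR 2.7, RSEM 1.31, mm10 and GRCm38. The authors deposited expected counts per gene, which are estimated counts that RSEM divides between genes sharing reads. TPM, also deposited by the authors, divides these by the gene's effective length. Effective lengths in bases, another kind of value, come from the deposited per-library files. Settings were not found in the sources used here. The 92 spike-in rows, all at 0, were left out. Series and per-library tables differed by at most 0. Of 55573 gene identifiers, 55094 match GENCODE release 21 with version.

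Members and lists were chosen with earlier results of these data known. The named genes are every mitochondrial mRNA and rRNA, tRNAs with at least 10 counts (none), Polrmt, Tfam, Lrpprc, Elac2 and up to 2 machinery genes per role with the smallest p. Members named from the RNAs without a poly(A) tail, Mterf1a and mt-Tm and mt-Ty were chosen after their values were seen.

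Counts were rounded and tested with edgeR 4.0.16 (quasi-likelihood, TMM, filterByExpr, Benjamini-Hochberg over 16810 genes, threshold 0.05) in R 4.3.3. SE is the standard error of a log2 fold change from that fit. 15 members passed the filter. Since all 13 mRNAs and both rRNAs passed, only tRNAs were lost. A second fit took the mitochondrial mRNA total as library size. Shares and ratios used exact permutation tests over libraries. Nuclear copies were aligned to members with Biopython 1.88, and others with at least 95% identity over 100 bases were sought with BLAST+ 2.17.0; 4 were found, with at most 8.76 counts. Alternatives were DESeq2 1.42.0, limma 3.58.1 on log2(TPM + 1) and log2(TPM + 0.1), other scalings and filters, copies added, tumours 1 and 2 summed, and each library left out. On simulated counts for 15642 genes, the main test recovered 86% of genes changed 2-fold and 100% of those changed 4-fold. The simulation changed 100 genes at each fold, gave all genes the same dispersion and had no other difference in composition between the groups. These rates therefore do not cover the difference in composition between these tissues.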

Additional observations from a re-analysis of the deposited data

How the results depend on the processing

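No paired analysis was possible because the labels give no number that ties a tumour to a normal library. Across alternatives, 198 of 223 log2 fold changes of single members kept their direction and their side of the threshold. In the fit relative to the mRNA total, 165 of 187 values, which include counts of calls, stayed the same. Of the other counts and ratios, 76 of 96 stayed the same. A count of calls was the same if within a fixed ratio of the main count. A share or ratio was the same if it moved by no more than the SD of the tumours on the log2 scale. With total counts alone, 7 members were higher and 3 lower, and 49 machinery genes were higher and 0 lower, beside 93.3% and 2.37% of all genes. The log2 fold changes that turned positive there were 1.25 for mt-Nd1, 1.92 for mt-Co1, 0.98 for mt-Atp6, 1.01 for mt-Co3, 0.12 for mt-Nd5 and 0.40 for mt-Cytb. With acinar markers, misc_RNA and mitochondrial rRNA left out, 1 member was higher, since the rRNAs were not in that fit. On log2(TPM + 1) and log2(TPM + 0.1), limma gave mt-Co1 0.18 in both, no longer called mt-Nd1 (-0.47 in both) and called mt-Nd3 higher (1.67 and 1.68). It called 37 and 39 of the 52 machinery genes higher, with 3 lower in each. Of all 16810 genes, it called 10665 and 11558 higher and 1173 and 1192 lower. mt-Nd3 turned to -1.47 with copies added, -0.19 without normal pancreas 1 and -0.17 without tumour 3, in a range of -0.19 to 0.42 with 1 library left out. The machinery counts with 1 library left out ranged from 4 to 9 higher and from 11 to 19 lower. Adding the copies as 1 class was run for shares and ratios only.

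Relative to the mitochondrial mRNA total, the median of ratios over those mRNAs gave 3 lower members and turned mt-Atp6 (0.70), mt-Co3 (0.74) and mt-Cytb (0.11). Adding copies turned mt-Nd1 (-0.10), mt-Co2 (0.11) and mt-Co3 (1.05), and with mt-Co1 also left out of the library size mt-Co2 was 0.40 and mt-Co3 1.35. With 1 library left out, mt-Atp6 ranged from -0.23 to 0.046 (without normal pancreas 1) and mt-Co3 from -1.64 (without tumour 2) to 0.31 (without tumour 1 or tumour 3). Outside acinar markers, misc_RNA and mitochondrial rRNA, the tumour to normal ratio of the mRNA share was 0.371 in place of 2.09, and that of rRNA counts per count in this denominator, which does not hold them, was 61.9 in place of 346 as a share of all counts. With copies added, the ratio was 2.55 for the mRNA share, 136 for rRNA per mRNA and 7.95 for the mt-Nd6 share. The mt-Nd6 ratio was 13.1 on TPM. On counts it was 9.66, and 7.74 to 12.9 with 1 library left out. The cause was not tested. mt-Nd6 had only 108 and 65 counts in normal pancreas, and the tRNAs are limited by their length.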

Other observations

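The counts of mt-Rnr1 were nearly the same in all tumours, at 26562, 26533 and 26511, although the libraries held 15074489, 12601496 and 6611967 counts. Its highest tumour count was 1.002 times its lowest. None of 1562 other genes with a mean tumour count of at least 1000 had a ratio that low, the lowest being 1.21 and the median 2.57. Among the 12 members with such counts the median was 1.51. mt-Nd2 showed counts of 1702, 1748 and 1750, while mt-Rnr2 had 321692, 291557 and 211788.

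The counts of mt-Co3 were 1120, 7311 and 565 in the tumours, a range of 12.9 times, whereas those summed with its nuclear copy Gm28437 were 69869, 70315 and 29740. In normal pancreas the sums were 47970 and 45148.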
